A study of Mus musculus with 16 samples.

Results

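This account describes 10 genes of glutathione synthesis and antioxidant defence in mouse liver, Gclc, Gclm, Gss, Gsr, Gpx1, Srxn1, Txnrd1, Nqo1, Hmox1 and Nfe2l2. They were taken from a fixed list of names, and all 10 of the 10 were measured, each by 1 probe set, among 18820 genes with a probe set that carried a single gene symbol. Liver RNA of male mice aged 14 to 16 weeks, on a C57Bl/6J background and kept on chow, was hybridised to 16 whole-transcript arrays, 4 in each group. The groups were vanin-1 knockout after a 24 h fast (fasted KO), wild type after a 24 h fast (fasted WT), vanin-1 knockout in the fed state (fed KO) and wild type in the fed state (fed WT). The knockout mice are described as vanin-1 null without a promoter or cell type. Nothing in the labels ties an array to its own animal, and the p-values therefore measure the spread between these samples, which may be technical. Values are log2 RMA intensities, and a difference of 1 is a 2-fold change. The arrays are named by group and number.

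Glutathione is made in hepatocytes in a pair of steps. Glutamate-cysteine ligase, built from a catalytic subunit (Gclc) and a modifier subunit (Gclm), joins glutamate to cysteine and sets the rate, and glutathione synthetase (Gss) adds glycine. Glutathione reductase (Gsr) regenerates it with NADPH, and glutathione peroxidase 1 (Gpx1) spends it on peroxides. Thioredoxin reductase 1 (Txnrd1), sulfiredoxin (Srxn1), the quinone reductase Nqo1 and haem oxygenase 1 (Hmox1) are further arms of the defence, and many of these genes are targets of NRF2, the transcription factor encoded by Nfe2l2. NRF2 is held in the cytosol by KEAP1 and binds antioxidant response elements once released. Vanin-1 is a pantetheinase whose product cysteamine is a thiol, and mice without vanin-1 are known for altered tissue thiols.

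The antioxidant response element core was looked for in the promoters, because it is the sequence through which NRF2 acts. RefSeq promoters (build GRCm38.p6, 250 bases before to 50 after the start) were held for 7 of the 10 genes in 9 windows, Txnrd1 having 3. The core TGACNNNGC, on either strand, was present in windows of 4 genes, and 14.0% of all 27025 genes with a window held it. In Srxn1 it began at base 29 after the start, and the 250 bases before the start held none. In Txnrd1 it was in 1 of the 3 windows. The matches are printed below with 10 bases on each side and the core in capitals, 5′ to 3′ on the gene's own strand, where GCNNNGTCA is the core on the opposite strand.
Gclm, chr3:122245413-122245441, plus strand: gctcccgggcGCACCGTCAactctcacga
Nfe2l2, chr2:75704885-75704913, minus strand: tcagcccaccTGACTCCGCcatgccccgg
Srxn1, chr2:152105542-152105570, plus strand: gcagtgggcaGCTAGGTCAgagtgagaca
Txnrd1, chr10:82859104-82859132, plus strand: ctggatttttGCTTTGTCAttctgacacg

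Srxn1 is the gene with the largest response to fasting below, so its 250 bases upstream of the start are printed as well (GRCm38.p6, chr2:152105274-152105523, plus strand). Capitals mark the related element TGANTCA, the same on both strands, which was searched for after these letters had been read. It occurred at 102 and at 45 bases before the start in Srxn1 and in no other of the 7 genes' windows, and 9.0% of all genes with a window held it. A match of letters is a description and not a site of binding.
Srxn1: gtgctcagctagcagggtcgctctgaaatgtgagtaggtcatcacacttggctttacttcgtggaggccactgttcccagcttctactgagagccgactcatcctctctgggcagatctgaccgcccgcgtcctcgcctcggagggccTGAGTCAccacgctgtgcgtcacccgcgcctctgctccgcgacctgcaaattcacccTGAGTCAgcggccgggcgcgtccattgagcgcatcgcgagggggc

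The arrays carried the genotypes on their labels. Vnn1, the targeted gene, lay between 3.67 and 4.26 in fasted KO livers against 9.93 to 11.47 in fasted WT livers, and between 3.80 and 4.06 in fed KO livers against 6.71 to 10.34 in fed WT livers. The tissue carried its label too, with the mean of 7 hepatocyte markers at 12.91 to 13.14 on every array. Arrays of a group correlated at 0.989 to 0.996 across genes. Fasted WT 4 stood apart with a mean of 8.88 over 5 pancreatic acinar markers, which lay at 4.02 to 4.21 on the other 15 arrays. Fed KO 4 had the highest mean of 9 acute phase genes, 12.78, against 9.89 to 11.29 in the other fed KO livers. The array names of fasted KO 1, fed WT 2 and fed KO 4 end in 2, its meaning not given in the sources used here.

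Srxn1 (probe set 10477061) gave the clearest response of the 10 genes, and it was a response to fasting in both genotypes. Its enzyme, sulfiredoxin, restores peroxiredoxins that have been overoxidised by peroxide. In knockout livers it lay at 9.24, 8.86, 9.18 and 9.36 in the fasted state, against 8.10, 8.10, 8.28 and 7.87 in the fed state. All 4 fasted knockout arrays lay above all 4 fed ones. The mean was 9.16 ± 0.21 in fasted KO and 8.09 ± 0.17 in fed KO livers (SD, n = 4 each), a 2.10-fold rise (log2 difference 1.07, SE 0.16, limma adjusted p = 2.96e-04). In wild type livers the values were 9.16, 8.74, 8.73 and 8.93 in the fasted state, against 8.21, 7.88, 7.75 and 7.37 in the fed state, again without overlap. The mean was 8.89 ± 0.20 in fasted WT and 7.80 ± 0.35 in fed WT livers (SD, n = 4 each), a 2.13-fold rise (log2 difference 1.09, SE 0.16, limma adjusted p = 4.91e-04). The rise kept its call in both genotypes under all 30 alternative settings, with log2 differences of 0.97 to 1.17 in knockout and 0.94 to 1.22 in wild type liver.

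The size of the Srxn1 response did not differ measurably between genotypes. The difference of the fasting responses, KO minus WT, was -0.01 with a 95% interval of -0.48 to 0.45 (limma adjusted p = 0.997). Srxn1 means were ordered fasted KO, fasted WT, fed KO and fed WT from high to low, and of the neighbours in that order only fasted WT and fed KO did not overlap. The knockout lay above wild type by 0.27 (95% interval -0.06 to 0.60) in the fasted state and by 0.29 (95% interval -0.04 to 0.61) in the fed state, differences that did not pass the test (limma adjusted p = 0.907 and 0.861).

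**Figure D1:**
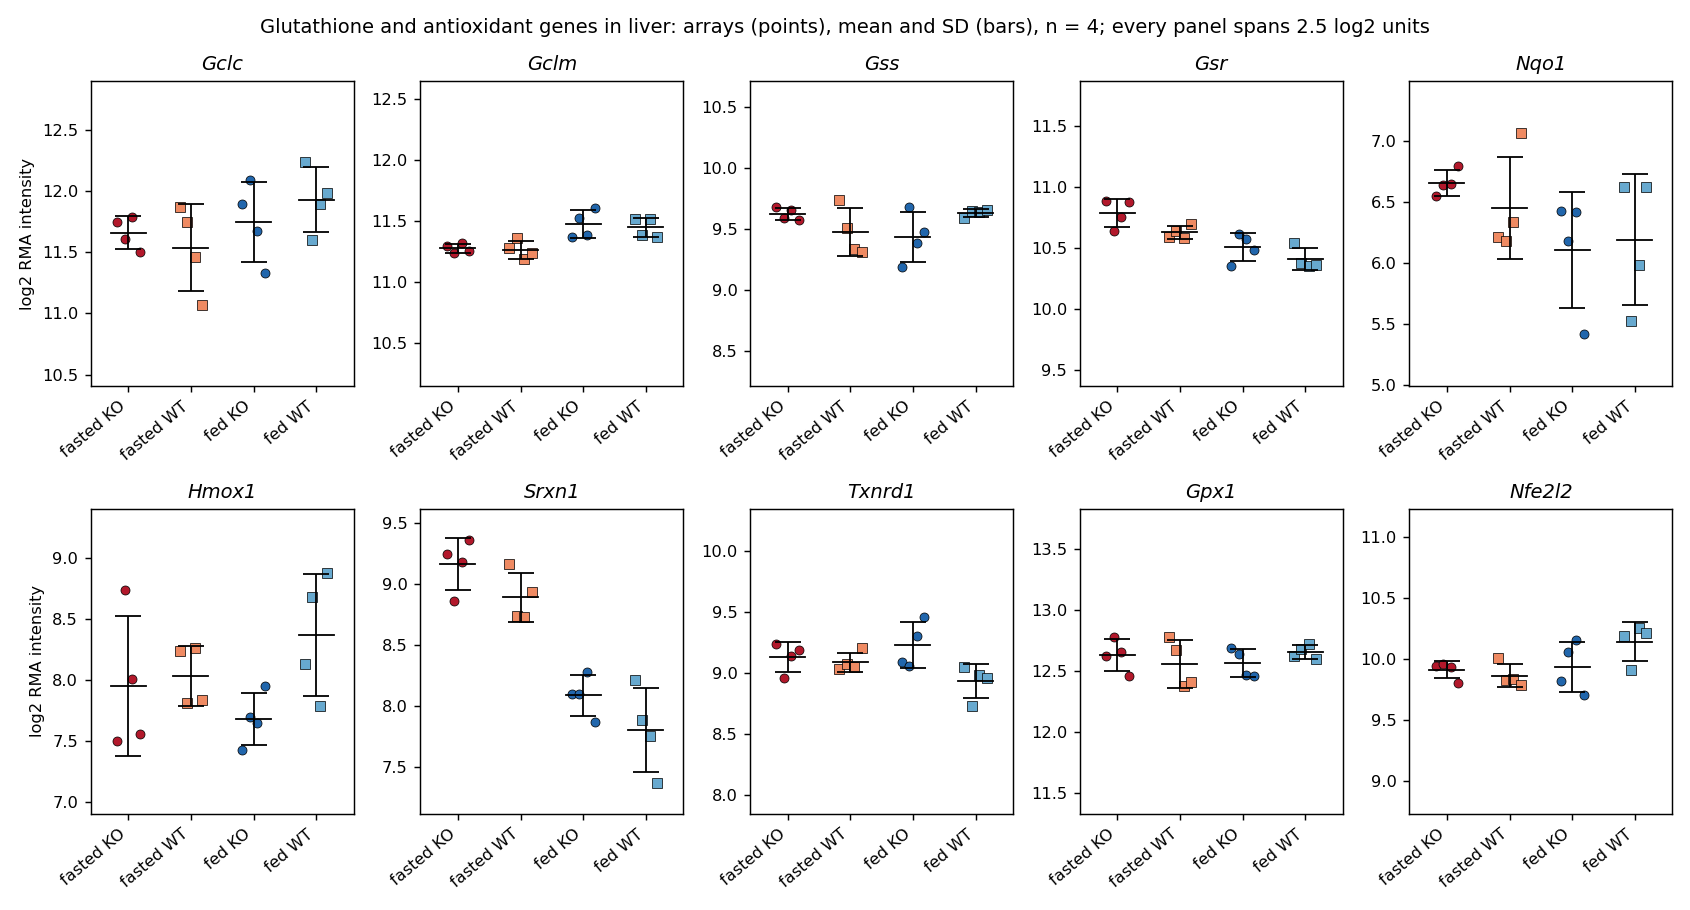
Log2 RMA intensity (y axis, every panel spanning 2.5 log2 units) of the 10 genes in fasted KO, fasted WT, fed KO and fed WT livers (x axis), with a point for each array and bars for the mean and SD (n = 4). Srxn1 is the gene whose fasted and fed arrays stand farthest apart, while Nqo1, Hmox1 and Gclc scatter within groups.

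Gsr, the reductase that regenerates glutathione (probe set 10571274), moved the same way as Srxn1 but by less. In knockout livers it lay at 10.88, 10.64, 10.75 and 10.87 in the fasted state, against 10.35, 10.61, 10.57 and 10.48 in the fed state. The groups did not overlap, with fasted KO 2 and fed KO 2 close together at the edges, and the rise was 1.21-fold (log2 difference 0.28, SE 0.08, limma adjusted p = 0.0329). In wild type livers it lay at 10.59, 10.64, 10.58 and 10.69 in the fasted state, against 10.54, 10.37, 10.35 and 10.36 in the fed state. These groups did not overlap either, but the log2 difference of 0.22 (95% interval 0.05 to 0.38) did not pass the test (limma adjusted p = 0.108). The responses differed by 0.06, KO minus WT, with a 95% interval of -0.17 to 0.29 (limma adjusted p = 0.980).

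The Gsr call in knockout liver was fragile and ended in 11 of the 30 settings, with adjusted p between 0.0175 and 0.188 and log2 differences of 0.23 to 0.33 over the settings. It was lost without fasted KO 1 (limma adjusted p = 0.107), fasted KO 3 (0.0530), fasted KO 4 (0.101), fed KO 1 (0.111) or fed KO 4 (0.0684). It was also lost without both fasted WT 4 and fed KO 4 (0.0726) and after centring every array on its own median (0.0836), and in the remaining 4 settings it ended as given in the closing section. From high to low the Gsr means ran fasted KO first, then fasted WT, fed KO and fed WT, and every neighbouring pair overlapped.

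Glutamate-cysteine ligase showed no called change in either subunit. Gclm lay at 11.30, 11.24, 11.32 and 11.26 in fasted KO livers, against 11.37, 11.53, 11.39 and 11.61 in fed KO livers. In wild type it lay at 11.28, 11.36, 11.19 and 11.24 in fasted livers, against 11.52, 11.39, 11.52 and 11.37 in fed livers. The fasted arrays lay below the fed ones without overlap in both genotypes, by 0.19 in knockout (95% interval 0.04 to 0.35 lower) and by 0.18 in wild type (0.03 to 0.34 lower). Neither difference passed the test (limma adjusted p = 0.109 and 0.146). Gclm was also the most even of the genes between genotypes, with differences of 0.01 in fasted and 0.02 in fed livers, KO minus WT, and 95% intervals of -0.14 to 0.17 and -0.13 to 0.18.

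Gclc, the catalytic subunit, scattered more. It lay at 11.75, 11.61, 11.79 and 11.50 in fasted KO, at 11.87, 11.75, 11.46 and 11.07 in fasted WT, at 11.90, 12.09, 11.68 and 11.33 in fed KO and at 12.24, 11.60, 11.90 and 11.99 in fed WT livers. All neighbouring groups overlapped, and the lowest value of the 16 came from fasted WT 4, the array with pancreatic transcripts. In wild type the fasted mean lay 0.40 below the fed mean (95% interval 0.02 to 0.77 lower, limma adjusted p = 0.211), and in knockout 0.09 below (95% interval from 0.47 lower to 0.29 higher, limma adjusted p = 0.827). Without fasted WT 4 the wild type difference was -0.24. The knockout difference was -0.23 without fed KO 4 and turned to 0.02 without fed KO 2. Between genotypes Gclc differed by 0.12 in fasted and -0.18 in fed livers, KO minus WT, with 95% intervals of -0.25 to 0.50 and -0.56 to 0.20. Without fasted WT 4 the fasted difference was -0.03, and without fed KO 4 the fed difference was -0.04. Over the settings the fed difference ran from -0.30 to -0.04.

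Gss, which completes the tripeptide, was tight in a pair of the groups and loose in the others. It lay at 9.68, 9.59, 9.66 and 9.58 in fasted KO and at 9.74, 9.51, 9.34 and 9.31 in fasted WT livers. It lay at 9.19, 9.68, 9.39 and 9.48 in fed KO and at 9.59, 9.65, 9.64 and 9.66 in fed WT livers. The fasting difference was 0.19 in knockout and -0.16 in wild type liver, so the responses differed by 0.35, KO minus WT (95% interval 0.04 to 0.65). That difference had an unadjusted p of 0.0270 and did not pass the test over all genes (limma adjusted p = 0.948, from 0.446 to 0.9998 over 29 settings).

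Gpx1, a selenium-containing peroxidase, was the least changed in level. Its 16 values lay between 12.38 and 12.78, and its group means were 12.63 ± 0.13 in fasted KO, 12.56 ± 0.20 in fasted WT, 12.56 ± 0.12 in fed KO and 12.66 ± 0.05 in fed WT livers (SD, n = 4). Every 95% interval for a difference between groups lay within -0.30 to 0.27.

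Txnrd1, which reduces thioredoxin in the cytosol, was the only one of the 10 genes whose knockout and wild type arrays did not overlap, and this was in the fed state. It lay at 9.09, 9.06, 9.30 and 9.46 in fed KO livers, against 9.05, 8.73, 8.98 and 8.96 in fed WT livers. The lowest knockout and the highest wild type array nearly touched. The log2 difference was 0.30 (95% interval 0.09 to 0.51) with an unadjusted p of 0.00741, which did not pass the test over all genes (limma adjusted p = 0.855). It was 0.22 without fed KO 4 and 0.23 without fed WT 2. Without the 3 arrays whose name ends in 2 it was 0.15. In fasted livers Txnrd1 lay at 9.24, 8.96, 9.14 and 9.19 in KO against 9.03, 9.07, 9.05 and 9.20 in WT, a difference of 0.04 (95% interval -0.16 to 0.25).

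Hmox1, whose enzyme breaks haem down to biliverdin, iron and carbon monoxide, had the widest genotype difference of the set. It lay at 7.43, 7.70, 7.65 and 7.95 in fed KO livers, against 8.13, 8.68, 7.79 and 8.88 in fed WT livers. The groups overlapped through fed KO 4 and fed WT 3. The log2 difference was -0.69 (95% interval -1.22 to -0.15) with an unadjusted p of 0.0150, and it did not pass the test over all genes (limma adjusted p = 0.855, from 0.587 to 0.997 over the settings). In fasted livers it lay at 7.50, 8.74, 8.01 and 7.56 in KO against 8.24, 7.81, 8.26 and 7.84 in WT, with a difference of -0.09 (95% interval -0.62 to 0.45, limma adjusted p = 0.992). That difference was -0.35 without fasted KO 2, the highest fasted array, and turned to 0.07 without fasted KO 1 and 0.04 without fasted KO 4. Hmox1 is also strongly expressed in macrophages that clear red cells, and in whole liver fewer such cells and less RNA per cell cannot be told apart. The mean of 12 macrophage markers was 8.42 to 8.77 in fed KO and 8.56 to 9.27 in fed WT livers, with the highest value on fed WT 4, which also had the highest Hmox1. In the other groups too the highest marker mean and the highest Hmox1 fell on the same array (fasted KO 2, fasted WT 3 and fed KO 4). The lowest values fell on the same array in fasted KO and fed WT livers only. In fed KO against fed WT 0 of the 12 markers were called. An unadjusted p below 0.05 was reached by 3, beside 5.76% of all genes, and the marker median was -0.19. Without fed WT 4 the Hmox1 difference was -0.52. None of the 12 markers lay below the array median on every array, and their part in the Hmox1 difference was not tested.

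**Figure D2:**
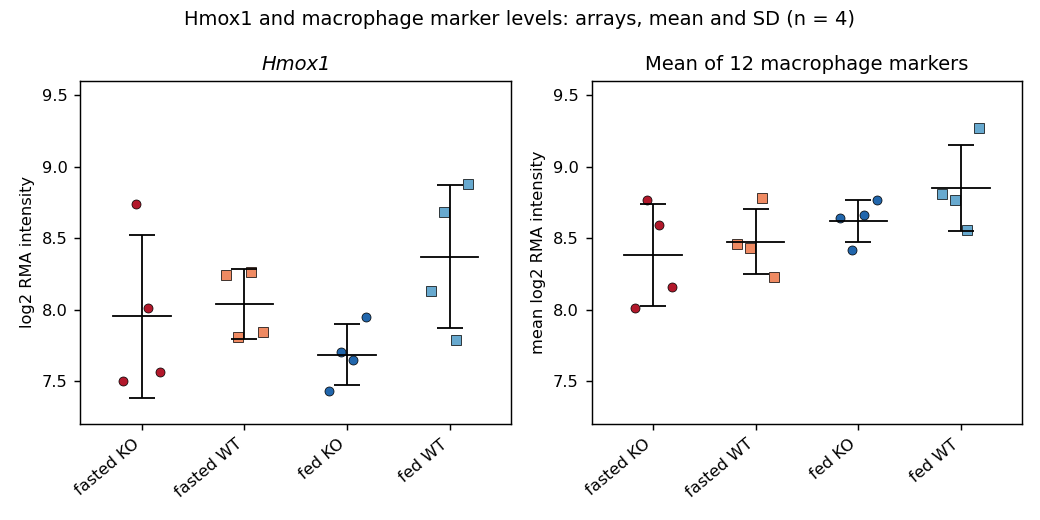
Hmox1 (left, log2 RMA intensity) and the mean of 12 macrophage markers (right, mean log2 RMA intensity) in fasted KO, fasted WT, fed KO and fed WT livers, with a point for each array and bars for the mean and SD (n = 4). Hmox1 was 7.43 to 7.95 in fed KO and 7.79 to 8.88 in fed WT livers, and the marker mean was 8.42 to 8.77 in fed KO and 8.56 to 9.27 in fed WT livers.

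Nqo1, a classical NRF2 target that reduces quinones, varied between arrays by more than 95.9% of genes (SD 0.44 over the 16 arrays). It lay at 6.55, 6.64, 6.65 and 6.80 in fasted KO livers, against 6.43, 6.18, 6.42 and 5.42 in fed KO livers. These groups did not overlap, and the log2 difference of 0.55 (95% interval 0.01 to 1.09) did not pass the test (limma adjusted p = 0.216). In wild type it lay at 6.22, 6.18, 6.34 and 7.07 in fasted livers, against 6.63, 5.53, 5.99 and 6.63 in fed livers, a difference of 0.26 (95% interval -0.28 to 0.80). The extremes of Nqo1 fell on the arrays that stood apart, the highest on fasted WT 4 and the lowest on fed KO 4, where pancreatic and acute phase transcripts were high. Without fed KO 4 the knockout difference was 0.32, and without fasted WT 4 the wild type difference was 0.05.

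Nfe2l2, the gene of NRF2 itself, did not rise where Srxn1 did. In wild type it lay at 10.01, 9.83, 9.84 and 9.79 in fasted livers, against 10.19, 9.91, 10.26 and 10.22 in fed livers. The log2 difference was -0.28 (95% interval -0.49 to -0.06) and did not pass the test (limma adjusted p = 0.114). Without fed WT 2, the lowest fed array, it was -0.36 and passed (limma adjusted p = 0.0441), as it did without the 3 arrays whose name ends in 2 (0.0323). In knockout it lay at 9.95, 9.96, 9.94 and 9.81 in fasted livers, against 9.82, 10.06, 10.16 and 9.71 in fed livers, a difference of -0.02 (95% interval -0.24 to 0.19). Without fed KO 4, the lowest fed array, it was -0.10, and without fed KO 3, the highest, it was 0.05.

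For knockout against wild type in the fasted state, limma called 0 of the 10 genes, where it called 0.0159% of all genes (3 of 18820). None of the 10 had an unadjusted p below 0.05, against 5.49% of all genes, and none separated the groups without overlap, against 3.15%. In the fed state it again called 0 of 10, against 0.00531% of all genes. There 2 of 10 (Hmox1 and Txnrd1) had an unadjusted p below 0.05, against 5.76% of all genes, and 1 of 10 (Txnrd1) separated the groups, against 3.12%. The median log2 difference over the 10 genes, KO minus WT, was 0.10 in fasted livers and -0.09 in fed livers, against 0.00 and -0.01 over all genes. In the fasted and in the fed comparison the 95% interval lay within 1.5-fold either way (0.58 on the log2 scale) for 7 of the 10 genes, all but Nqo1, Hmox1 and Srxn1. The difference of the fasting responses was called for 0 of 10 genes, against 0% of all genes, and 1 of 10 (Gss) had an unadjusted p below 0.05, against 4.91%.

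For fasting in wild type, limma called 1 of the 10 genes (Srxn1), against 7.61% of all genes, or 3.34% counting rises alone. There 5 of 10 had an unadjusted p below 0.05, against 21.2% of all genes. The groups did not overlap for 3 of 10 (Srxn1, Gsr above and Gclm below), against 12.4%. For fasting in knockout it called 2 of 10 (Srxn1 and Gsr), against 9.42% of all genes, or 4.53% counting rises alone. There 4 of 10 had an unadjusted p below 0.05, against 22.1%, and 4 of 10 did not overlap (Srxn1, Gsr and Nqo1 above, Gclm below), against 17.0%. The median over the 10 genes was 0.13 in knockout and -0.13 in wild type fasting, against 0.02 and 0.01 over all genes. The count of all genes called in wild type was 1432, and 880 without fasted WT 4.

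**Figure D3:**
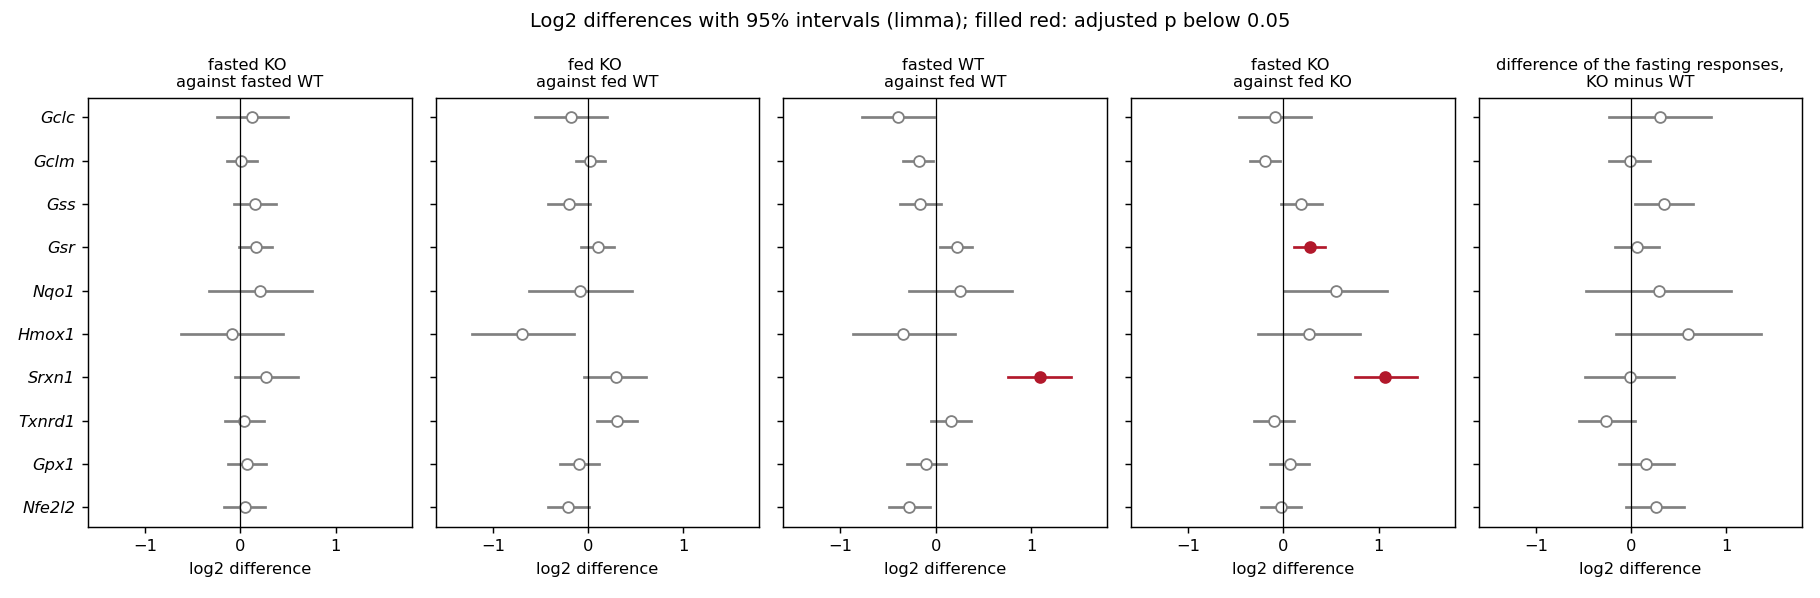
Log2 differences (x axis) of the 10 genes (y axis) in the genotype comparisons, the fasting comparisons and the difference of the fasting responses, with 95% intervals from limma. Filled red points passed an adjusted p of 0.05, which were Srxn1 in both fasting comparisons and Gsr in knockout fasting, and no gene passed in the genotype comparisons.

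Erythroid marker means, and stellate cell marker means in knockout, separated fasted from fed arrays, as Srxn1 and Gsr did. The mean of 2 measured erythroid markers (of 6 listed) was 6.88 to 7.28 in fasted KO against 7.43 to 7.58 in fed KO livers, and 6.99 to 7.27 in fasted WT against 7.28 to 7.69 in fed WT livers, with 1 of the 2 called lower in each genotype. Of these 2 markers, 1 lay below the array median on every array. The other, Alas2, lay at 9.07 to 9.65 in fasted KO against 10.03 to 10.26 in fed KO livers. In wild type Alas2 lay at 9.20 to 9.48 in fasted against 10.03 to 10.24 in fed livers. The mean of 8 stellate cell markers was 7.59 to 7.68 in fasted KO against 7.80 to 8.04 in fed KO livers, and 7.57 to 7.87 in fasted WT against 7.85 to 8.05 in fed WT livers, with 2 of 8 called lower in each genotype and a narrow overlap in wild type. Of 9 acute phase genes 2 were called lower in knockout and 1 in wild type, with median differences of -1.27 and -0.16. Their means overlapped, at 9.53 to 10.43 in fasted KO against 9.89 to 12.78 in fed KO livers. In wild type they were 9.84 to 10.32 in fasted against 9.91 to 11.04 in fed livers. The macrophage marker mean was 8.01 to 8.77 in fasted KO against 8.42 to 8.77 in fed KO, and 8.23 to 8.78 in fasted WT against 8.56 to 9.27 in fed WT livers, which overlapped. Of the 12 macrophage markers 0 were called in knockout and 1 was called lower in wild type. An unadjusted p below 0.05 was reached by 3 in knockout and 7 in wild type, beside 22.1% and 21.2% of all genes. Their median differences were -0.31 and -0.37. The hepatocyte marker mean was 12.91 to 13.05 in fasted KO against 12.97 to 13.07 in fed KO, and 12.99 to 13.14 in fasted WT against 12.91 to 13.06 in fed WT livers. Of the 7 hepatocyte markers 0 were called in knockout and 2 were called higher in wild type (28.6%). Among these 7, 1 in knockout and 3 in wild type had an unadjusted p below 0.05, with median differences of -0.01 and 0.01. Over all genes limma called 9.42% in knockout fasting and 7.61% in wild type fasting. The part of these markers in the responses was not tested.

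The genes whose levels followed Srxn1 most closely over the 16 arrays, among 9410 genes with a mean above the median, were Flywch1 (Pearson r = 0.97), Def8 (0.96) and Crat (0.96), the last encoding carnitine acetyltransferase. Those nearest to Gsr were Psmd4 (0.94), a proteasome subunit gene, Pex19 (0.93), whose product serves import into peroxisomal membranes, and Galnt2 (0.92). These are descriptions of likeness without a test, and they include the step between fed and fasted arrays. With each group's mean taken out the values were 0.77, 0.84 and 0.76 for Srxn1 and 0.84, 0.78 and 0.72 for Gsr. Crat differed by 1.81 between fasted KO and fed KO livers and by 1.37 between fasted WT and fed WT livers.

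Beyond the 10 genes, 133 measured genes of 9 related lists (of 147 listed) were read in the same fit. In the genotype comparisons limma called 0 of the 133 in fasted and 0 in fed livers, where 8 (6.02%) and 6 (4.51%) had an unadjusted p below 0.05, beside the 5.49% and 5.76% of all genes. The difference of the fasting responses was called for 0 of the 133. There 9 (6.77%) had an unadjusted p below 0.05, beside 4.91% of all genes. A gene called in 1 genotype below is therefore not shown to differ between genotypes. On fasting it called 32 of 133 in knockout (13 higher and 19 lower, 24.1%) and 22 of 133 in wild type (6 higher and 16 lower, 16.5%), beside the 9.42% and 7.61% of all genes given above. In the NRF2 regulation list 1 of 14 genes rose in knockout (7.14% called), and 1 rose and 2 (Bach2 and Maff) fell in wild type (21.4%). The riser in both was Sqstm1, whose product p62 can displace KEAP1 from NRF2, at 1.29-fold in knockout (limma adjusted p = 0.00289) and 1.21-fold in wild type (0.0261). Keap1 differed by 0.04 in knockout and 0.19 in wild type fasting, and Bach1, a repressor at the same elements, by 0.07 and -0.19, none of which passed the test.

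Of 24 measured genes in the list of other NRF2 targets, 1 rose and 3 fell in fasted knockout liver (16.7% called, beside 9.42% of all genes). In fasted wild type liver none rose and 3 fell (12.5%, beside 7.61%), and the list medians were 0.07 in knockout and 0.01 in wild type. Nqo2, a quinone reductase gene, averaged 9.50 ± 0.28 in fasted KO against 10.27 ± 0.24 in fed KO livers and 9.38 ± 0.36 in fasted WT against 10.41 ± 0.07 in fed WT livers (SD, n = 4), 1.71-fold and 2.05-fold lower (limma adjusted p = 0.00620 and 0.00116). Osgin1, an oxidative stress-induced growth inhibitor gene, fell by 1.21 in wild type (limma adjusted p = 0.0256) and differed by -0.93 in knockout (0.0799). Cbr1, a carbonyl reductase gene, rose 1.69-fold in knockout (limma adjusted p = 0.00607) and differed by 0.48 in wild type (0.0830).

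Glutathione transferases, which attach glutathione to electrophiles, were mostly lower on fasting where they were called. Of 18 measured, 4 fell and 2 rose in knockout and 5 fell in wild type, with list medians of -0.14 and -0.33. The shares called were 33.3% and 27.8%, beside 9.42% and 7.61% of all genes. Gstm3 was 1.96-fold lower in knockout and 2.27-fold lower in wild type (limma adjusted p = 0.00171 and 6.35e-04), Gstm6 1.97-fold and 2.17-fold lower (0.00125 and 6.92e-04). Gsta3 fell 1.77-fold in knockout and 1.44-fold in wild type (limma adjusted p = 5.79e-05 and 0.00365). In knockout Gstt2 rose 1.78-fold and Gsto1 1.39-fold (limma adjusted p = 0.00824 and 0.0402), and in wild type they differed by 0.42 and 0.22 (0.209 and 0.398). The mu class genes are close copies of one another, so their probe sets may share signal and which of them changed is uncertain.

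Genes in the list of glutathione breakdown and use changed in both directions. Of 17 measured, 2 rose and 3 fell in knockout, and 1 rose and 2 fell in wild type. The shares called were 29.4% and 17.6%, beside 9.42% and 7.61% of all genes. The genes called in knockout included Slc25a39 (higher) and Hagh (lower), which were not called in wild type. Oplah, whose enzyme opens 5-oxoproline to glutamate for reuse, averaged 10.88 ± 0.10 in fasted KO against 9.85 ± 0.19 in fed KO livers and 10.52 ± 0.06 in fasted WT against 9.72 ± 0.21 in fed WT livers (SD, n = 4). It rose 2.05-fold and 1.74-fold (limma adjusted p = 1.44e-05 and 3.31e-04). Chac1 and Chac2, genes of enzymes that cleave glutathione, fell by 0.66 and 0.60 in knockout (limma adjusted p = 0.0277 and 6.00e-04) and by 0.66 and 0.52 in wild type (0.0341 and 0.00287).

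Among peroxidases and glutaredoxins 1 of 11 genes rose in each genotype (9.09%, beside 9.42% of all genes called in knockout and 7.61% in wild type). This was Glrx, a glutathione-dependent thiol reductase gene, which averaged 10.06 ± 0.12 in fasted KO against 8.76 ± 0.24 in fed KO livers and 9.90 ± 0.41 in fasted WT against 8.64 ± 0.42 in fed WT livers (SD, n = 4). It rose 2.47-fold and 2.39-fold (limma adjusted p = 4.72e-04 and 0.00109). Of 16 peroxiredoxin and thioredoxin genes 2 rose and 1 fell in knockout (18.8% called), and 1 rose in wild type (6.25%). Sesn2, a stress-induced sestrin gene, rose 1.55-fold and 1.76-fold (limma adjusted p = 0.0343 and 0.00935). In knockout Txnip, the gene of an inhibitor of thioredoxin, rose 1.97-fold and Prdx4, of a peroxiredoxin of the endoplasmic reticulum, fell 1.56-fold (limma adjusted p = 0.00636 and 0.00572). In wild type Txnip differed by 0.39 and Prdx4 by -0.40 (limma adjusted p = 0.303 and 0.0856). In the list of catalase and superoxide dismutases, which also holds the chaperone gene Ccs, 0 of 5 were called on fasting in either genotype. An unadjusted p below 0.05 was reached by 0 in knockout and 1 in wild type, beside 22.1% and 21.2% of all genes.

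**Figure D4:**
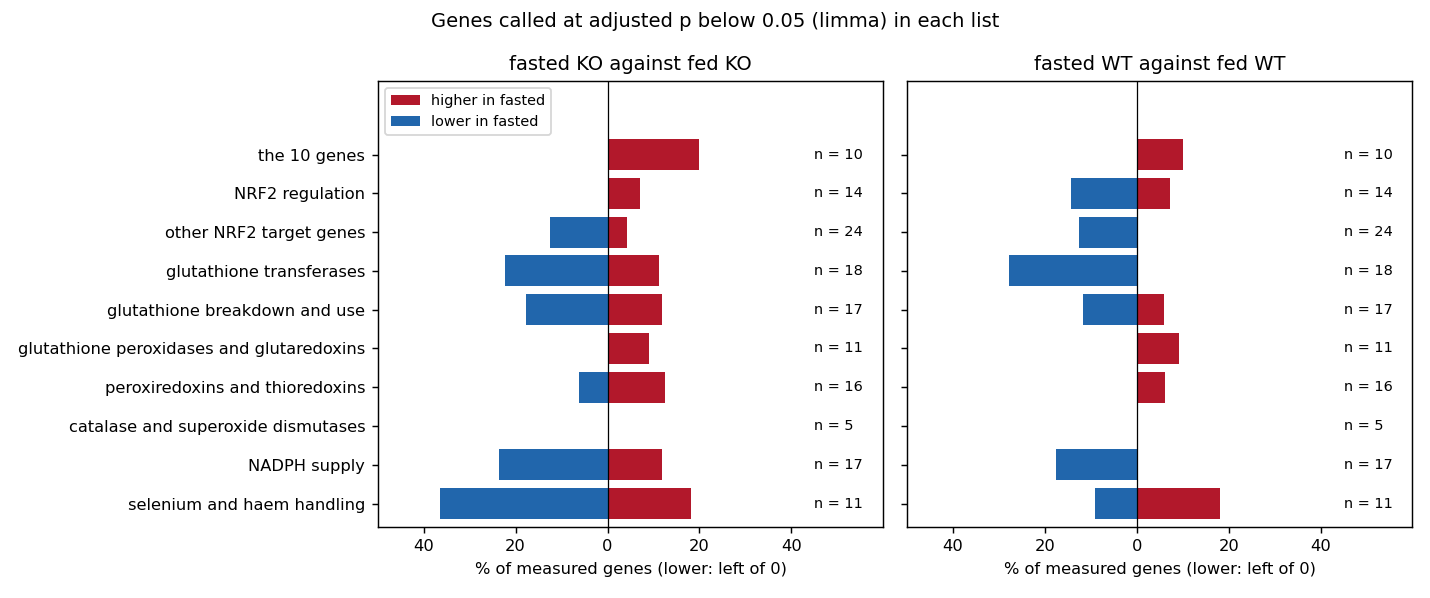
Share of measured genes (x axis, %, with the number measured at the right) of the 10 genes and of 9 related lists (y axis) called at a limma adjusted p below 0.05 in fasted against fed livers of knockout (left) and wild type (right), red for higher and blue for lower in the fasted state. Glutathione transferases had 4 lower and 2 higher of 18 in knockout and 5 lower in wild type. Over all genes 9.42% were called in knockout and 7.61% in wild type.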

How the data were processed

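RNA intensity was measured on 16 arrays. Per the submitters' processing notes, RMA produced the log2 values that the authors deposited. Its usual steps are background correction, quantile normalisation and a summary per probe set, and the program version was not stated. Of 35556 probe sets, 21218 carried 1 gene symbol, 1881 several, and 12457 were not listed in the annotation table. Per gene the single-symbol probe set with the highest mean was kept, giving 18820 genes, dim ones included.

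Groups were compared with limma (version 3.58.1, R 4.3.3). All 16 arrays entered one model of 4 group means, with 12 residual degrees of freedom and a prior of 4.66. Tests were two-sided, and p-values were adjusted by Benjamini-Hochberg over all genes and called below 0.05. The 95% intervals are unadjusted, and the number of arrays limits the precision.

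The 10 genes, the related lists and the tests were chosen with earlier results of these data known. The rule for named genes took the 10 genes in every comparison, up to 3 called genes per list and direction, and the 3 nearest by correlation to each called gene. The text prints part of them, and adds Keap1, Bach1 and the knockout value of Pstk. It also adds the wild type or knockout value of genes given with values but called only in the other genotype. Title numbers were not treated as pairs, and what they stand for is not given. Of 24 same-numbered pairs of arrays, 4 had deviations correlated above 0.1 (lowest -0.22, highest 0.209). Arrays of different numbers were not set beside them, so this count cannot show whether the numbers pair the arrays. Odd and even title numbers lay in different plate columns. A block for plate column was among the alternatives and changed no call of the 10 genes. Sequences are from RefSeq, GRCm38.p6. The code was tested on simulated data. Alternatives changed the scaling, the filter, the prior, the blocks and the arrays left out.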

Additional observations from a re-analysis of the deposited data

Results flagged for a closer look

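In 40 sets of 4 arrays (10 genes in 4 groups), 2 held an array far from its group, where chance alone flags about 1 set in 20. Gsr lay at 10.54 on fed WT 1, against 10.35 to 10.37 on the other fed WT arrays. Nfe2l2 lay at 9.81 on fasted KO 4, against 9.94 to 9.96 on the other fasted KO arrays.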

How the results depend on the processing

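Each of 30 alternatives (29 for the difference of responses) was applied to every result. The genotype comparisons and the difference of the fasting responses had 0 of the 10 genes called under all of them, and Srxn1 kept both fasting calls. In knockout fasting 1 of the 10 genes was called, against 2 as reported, with arrays centred on their medians, only the groups compared, the replicate block, without the 3 arrays whose name ends in 2, without fasted WT 4 and fed KO 4 and at a threshold of 0.01, and 1 to 2 with 1 array left out. In wild type fasting 2 were called without the 3 arrays whose name ends in 2, against 1, and 1 to 2 with 1 array left out. The cause was not tested. Of 47 results not called, 1 was called under some setting (Nfe2l2 in wild type fasting).

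Counts over all genes moved as follows. For fasted KO against fasted WT, 3 genes became 1 without the arrays ending in 2, without fasted WT 4 and fed KO 4 and at 0.01, and 1 to 5 with 1 array left out (1 without fasted WT 2, 5 without fasted WT 1 or fasted KO 2). For fed KO against fed WT, 1 became 2 with median centring, the filter at the 50th percentile, a trended or robust prior and array weights, 4 over every probe set, 0 with only the groups compared and without the arrays ending in 2, and 1 to 3 with 1 array left out (3 without fed KO 1, and 2 without fasted WT 3, fasted KO 4, fed WT 3 or fed WT 4). For wild type fasting, 1432 became 829 with only the groups compared, 576 at 0.01 and 880 to 1608 with 1 array left out. For knockout fasting, 1772 became 964 without the arrays ending in 2, 879 at 0.01 and 1216 to 1861 with 1 array left out. The difference of responses had 0 to 1 (1 without fasted KO 3). With the replicate block Gsr lost its call in knockout fasting (limma adjusted p = 0.0623), leaving 1 of the 10 genes called. The block changed no other call of the 10 genes, and whether title numbers stand for a shared day or litter is not given. Signal over background is not in the table, so no limit from dim signal could be set.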

Other observations

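NADPH supply and selenium and haem handling were read from the same fit. Of 17 measured NADPH genes 2 rose and 4 fell in fasted knockout liver, and 3 fell in fasted wild type liver, with list medians of -0.18 and -0.13. The shares called were 35.3% and 17.6%, beside 9.42% and 7.61% of all genes. Taldo1, of the pentose phosphate pathway, was 1.33-fold lower in knockout and 1.31-fold lower in wild type (limma adjusted p = 0.0221 and 0.0337). Aldh1l1, of folate metabolism, fell 1.70-fold and Nadk, the NAD kinase gene, rose 1.30-fold in knockout (limma adjusted p = 0.00178 and 0.0118), and in wild type they differed by -0.38 and 0.16 (0.109 and 0.316).

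Of 11 measured selenium and haem genes 2 rose and 4 fell in knockout, and 2 rose and 1 fell in wild type. The shares called were 54.5% and 27.3%, beside 9.42% and 7.61% of all genes. Cpox, of haem synthesis, was 1.63-fold higher in knockout and 1.73-fold higher in wild type (limma adjusted p = 0.0148 and 0.00931). Blvra, which encodes the biliverdin reductase that acts after Hmox1, fell 1.32-fold in knockout (limma adjusted p = 0.0180) and differed by -0.24 in wild type (0.176). Sephs2 and Scly, genes of selenium use, fell 1.34-fold each in knockout (limma adjusted p = 0.00271 and 0.00141), and in wild type they differed by -0.13 and -0.23 (0.365 and 0.0733). Pstk, of the same list, fell 1.22-fold in knockout and 1.38-fold in wild type (limma adjusted p = 0.0280 and 0.00198). Secisbp2 rose 1.20-fold in knockout (limma adjusted p = 0.0356) and differed by 0.15 in wild type (0.267).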
